A study of Mus musculus with 12 samples.

Results

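The BCL2 family decides whether a stressed cell opens the outer membrane of its mitochondria and dies by apoptosis. Its genes were followed here in the myocardium of 3 groups of mice measured with Affymetrix arrays, 4 arrays in each. NC mice were negative controls injected with vehicle. DM mice received streptozotocin, a toxin of the pancreatic beta cell, by intraperitoneal injection on 5 consecutive days, and those whose fasting glucose reached 16.7 mM or more 2 weeks later entered the study. AngIV mice were made diabetic in the same way and then received a high dose of angiotensin IV, a peptide fragment of the renin-angiotensin system, at 2.88 mg/kg/day from the end of week 8 to the end of week 24. The tissue was labelled 6 months. The labels name neither strain, sex nor the part of the heart sampled, and streptozotocin diabetes is a model of insulin lack caused by a toxin. Group membership came from the sample titles, because the disease state tag contradicts them: it names the NC arrays diabetic and the AngIV arrays negative controls.

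The members were 10 genes chosen by symbol, and the probe set of a gene, which is the group of array probes that reads its transcripts, was selected on the highest mean signal over the 12 arrays. Of the 10 members, 9 had a named probe set among the 19505 genes named on the array; the tenth is not analysed here. Each of the 9 had 1 probe set, so the mean signal chose between none. Values are log2 signals, so a difference of 1 is a doubling. Of the 9, 8 passed the filter on low values and were tested among 13653 genes. Bid, with a mean of 2.61, was below the filter's threshold of 3.40, and the nearest member above it was Bmf with 4.12. A second yardstick was the level that 95% of negative control probe sets stayed under, between 5.39 and 5.60 on the 12 arrays, which is called background here. Mcl1 was above it on 12 arrays, Bcl2l1 on 11, Bak1 on 8 and Bad on 1. The signals of Bcl2, Bid, Bcl2l11, Bmf and Bbc3 were below it on every array, so that a difference in these 5 is a difference between signals near background and no fold is given for it.

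The family holds 3 kinds of protein. Anti-apoptotic members such as BCL2, BCL-XL and MCL1 bind and restrain the effectors, which otherwise assemble into pores that release cytochrome c. BH3-only members sense stress and act by occupying the anti-apoptotic proteins or by activating the effectors. Heart muscle cells are rarely replaced, and the adult heart depends on MCL1 in particular for normal mitochondria. BCL2 and BCL-XL also bind Beclin 1, a protein that starts autophagy, the process named in the series title, and the forkhead factors of the FoxO family are known to switch on the BH3-only genes Bcl2l11 and Bbc3.

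Bcl2l1, which encodes BCL-XL, was the 1 of 8 tested members called in AngIV against NC, a comparison in which 2.15% of all genes tested were called. It rose 2.41-fold in AngIV hearts compared with NC hearts, while the DM mean lay between those of the 2 groups. The NC mean of 5.72 was near the mean NC background of 5.48, and NC-2 at 5.24 was below background. Mcl1 was a little higher in AngIV than in NC on every array but did not pass the threshold, and none of the BH3-only members or Bak1 passed it in any comparison. The plot of all 9 genes by array shows these levels.

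**Figure D1:**
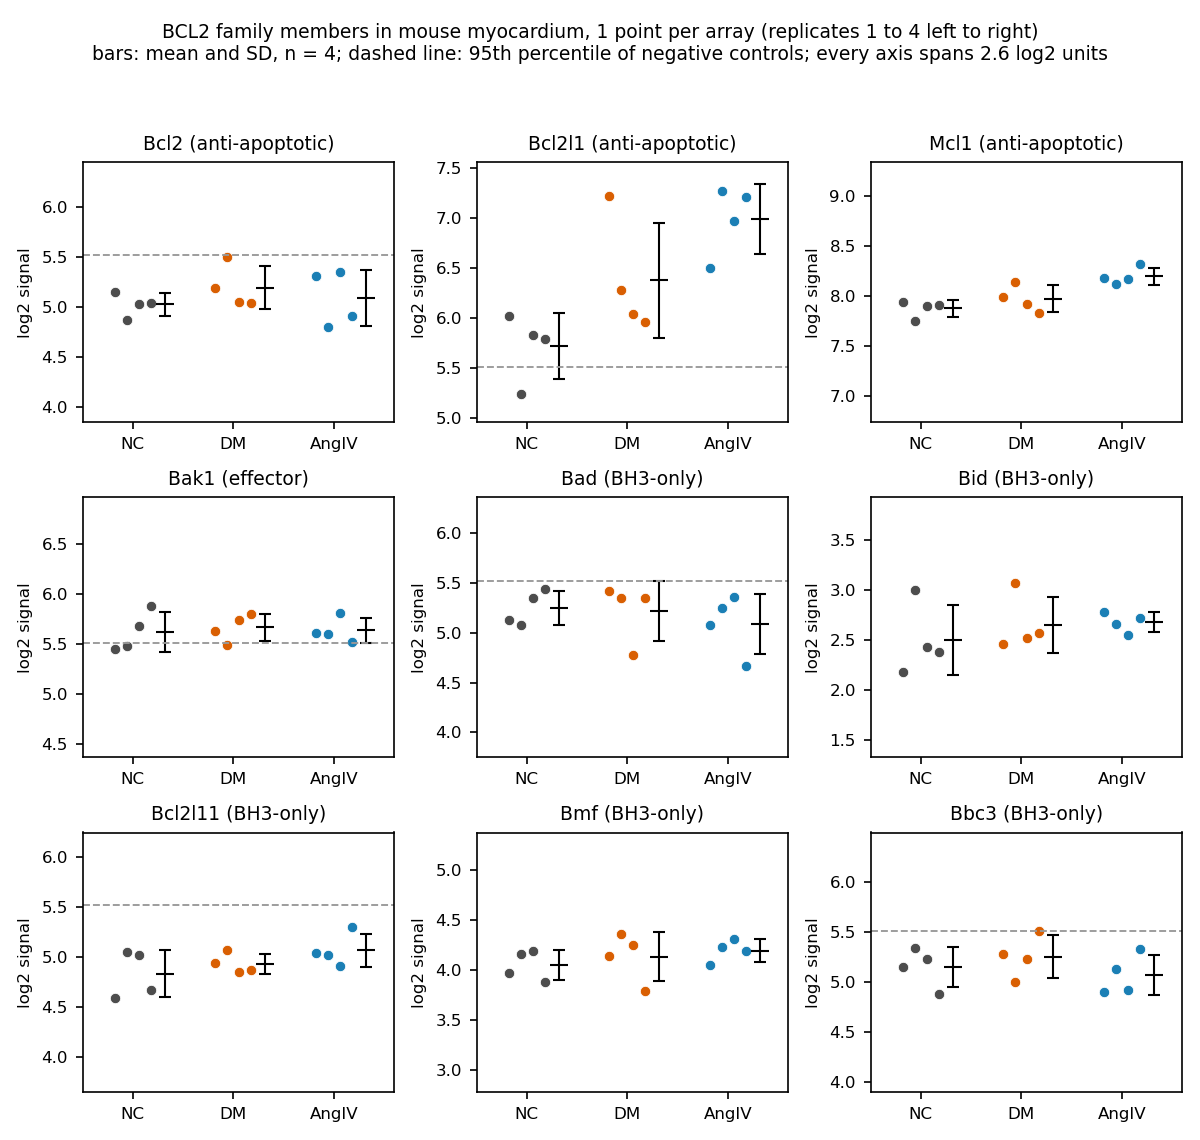
Log2 signal of the 9 family members with a named probe set (vertical axis), with 1 point per array, for the 4 NC, 4 DM and 4 AngIV arrays; bars are the mean and SD (n = 4) and the dashed line, where it falls in the panel, is the level that 95% of negative control probe sets stayed under. The AngIV arrays of Bcl2l1, between 6.50 and 7.27, lie above all NC arrays, between 5.24 and 6.02, while the 3 groups overlap for every other member except NC and AngIV for Mcl1.

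Bcl2l1 (probe set TC0200004913.mm.2) had log2 signals of 6.02, 5.24, 5.83 and 5.79 in the NC arrays (5.72 ± 0.33, mean ± SD, n = 4). In the DM arrays it stood at 7.22, 6.28, 6.04 and 5.97 (6.38 ± 0.58, n = 4). In the AngIV arrays it reached 6.50, 7.27, 6.97 and 7.21 (6.99 ± 0.35, n = 4). All 4 AngIV arrays were above the highest NC array. DM-1 lay among the highest AngIV arrays, DM-2, DM-3 and DM-4 lay below all of them, and DM-4 was below the highest NC array.

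The difference in Bcl2l1 between AngIV and NC was 1.27 ± 0.25 (log2, SE), with a 95% interval of 0.73 to 1.81 and an adjusted p of 0.0192 (limma, Benjamini-Hochberg over all genes tested). On the linear scale this is 2.41-fold, with an interval of 1.66 to 3.50. It ranked 115th of the 13653 genes by p. Between DM and NC the difference was 0.66 ± 0.25 (0.12 to 1.20), at an unadjusted p of 0.0205 and an adjusted p of 0.362. It rested largely on DM-1: without that array the difference was 0.37, with an adjusted p of 0.635. Between AngIV and DM it was 0.61 ± 0.25 (0.07 to 1.15), at an unadjusted p of 0.0288 and an adjusted p of 0.531, and without DM-1 it was 0.89, with an adjusted p of 0.146. These comparisons share arrays, so they are not independent of each other. The AngIV hearts differed from the NC hearts in both diabetes and infusion, and the call between them does not assign the difference to either.

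With the mean of the DM and AngIV groups set against NC, a comparison of all diabetic hearts with the controls, Bcl2l1 was higher by 0.96 ± 0.22 (log2, SE), or 1.95-fold with an interval of 1.41 to 2.69, at an adjusted p of 0.0448 (limma). DM-4 at 5.97 lay below NC-1 at 6.02, so here the groups overlapped. With 1 array left out, 104 to 251 genes were called in AngIV against NC and 49 to 338 in all diabetic hearts. With all arrays the counts were 293 and 180. Both calls of Bcl2l1 were also lost in some fits without 1 array. For AngIV against NC the difference ranged from 1.11 to 1.43 with any 1 array left out, and the call was kept in 4 of 8 such fits. It was lost without NC-2 (adjusted p = 0.0612), AngIV-2 (0.0589), AngIV-3 (0.055) or AngIV-4 (0.0622). For all diabetic hearts it was kept in 4 of 12. It was lost without NC-1 (adjusted p = 0.0653), NC-2 (0.137), NC-3 (0.0922), NC-4 (0.0941), DM-2 (0.0779), AngIV-2 (0.0793), AngIV-3 (0.078) or AngIV-4 (0.0761), with differences of 0.80 to 1.06 over the 12 fits. This call was also lost with no filter on low values (0.0599), with array weights (0.0541) and with the replicate block (0.0756).

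The start of Bcl2l1 is shown because it is the member called in AngIV against NC, in a series whose title names a forkhead factor. The RefSeq promoter table (GRCm38.p6) lists 3 starts for it; the 250 bases before the most upstream of them lie at chr2:152831729-152831978 on the minus strand. The forkhead core TGTTTAC and its reverse complement GTAAACA, printed in capitals wherever they occur in the sequences shown, were found in none of the 3 windows, and neither was the GC box GGGCGG or its reverse complement CCGCCC.
Bcl2l1 start 1: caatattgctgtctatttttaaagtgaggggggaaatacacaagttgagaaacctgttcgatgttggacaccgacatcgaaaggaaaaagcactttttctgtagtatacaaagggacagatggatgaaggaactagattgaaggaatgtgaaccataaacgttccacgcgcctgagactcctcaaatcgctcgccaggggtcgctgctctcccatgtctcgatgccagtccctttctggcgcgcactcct

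Mcl1 (probe set TC0300000910.mm.2), whose protein is short-lived and must be made continuously, had log2 signals of 7.94, 7.75, 7.90 and 7.92 in NC (7.88 ± 0.09, mean ± SD, n = 4). The DM arrays gave 8.00, 8.15, 7.93 and 7.83 (7.97 ± 0.13). The AngIV arrays gave 8.18, 8.12, 8.17 and 8.32 (8.20 ± 0.09). Every AngIV array was above every NC array, and DM spanned both. The difference between AngIV and NC was 0.32 ± 0.10 (log2, SE; 95% interval 0.12 to 0.53), or 1.25-fold with an interval of 1.08 to 1.44. Its adjusted p was 0.0886 (limma), over the threshold of 0.05. It was under the threshold with a trend in the limma prior (0.0387) and among genes above background in at least 1 group (0.0341, an alternative added after seeing the data). Between AngIV and DM the difference was 0.23 ± 0.10 (0.02 to 0.43; adjusted p = 0.541) and between DM and NC 0.10 ± 0.10 (-0.11 to 0.30; adjusted p = 0.776). The window before the 1 start of Mcl1 in the table, at chr3:95658471-95658720 on the plus strand, held a GC box and no forkhead core, and is shown as that of the member next to Bcl2l1 in the size of its difference between AngIV and NC.
Mcl1: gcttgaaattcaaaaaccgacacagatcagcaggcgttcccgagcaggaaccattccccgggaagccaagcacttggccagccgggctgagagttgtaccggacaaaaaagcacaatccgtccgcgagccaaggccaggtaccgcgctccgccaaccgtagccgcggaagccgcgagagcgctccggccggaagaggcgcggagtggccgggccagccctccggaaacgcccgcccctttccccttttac

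Bcl2, the founding anti-apoptotic gene, was near background. Its signals were 5.15, 4.87, 5.03 and 5.04 in NC, 5.18, 5.49, 5.05 and 5.04 in DM, and 5.31, 4.79, 5.35 and 4.90 in AngIV. The 3 groups overlapped. The 95% intervals of its differences were -0.13 to 0.47 for DM minus NC, -0.40 to 0.20 for AngIV minus DM and -0.24 to 0.37 for AngIV minus NC, all on the log2 scale.

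Bak1, the effector with a probe set here, forms pores in the outer mitochondrial membrane once freed from its inhibitors. It gave 5.45, 5.48, 5.68 and 5.88 in NC (5.62 ± 0.20, mean ± SD, n = 4). The DM arrays gave 5.63, 5.49, 5.75 and 5.80 (5.67 ± 0.14), and the AngIV arrays 5.62, 5.60, 5.81 and 5.52 (5.64 ± 0.12). No group stood apart. The difference between AngIV and NC was 0.01 ± 0.12 (log2, SE), with an interval of -0.24 to 0.26, which on the linear scale runs from 0.849-fold to 1.20-fold. For DM minus NC the interval was -0.20 to 0.29 and for AngIV minus DM -0.28 to 0.22. With array weights, or with atrial markers as a covariate, the sign of the AngIV minus NC value turned (-0.02 and -0.07).

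Among the BH3-only genes, Bcl2l11 encodes BIM, an activator of the effectors. It gave 4.59, 5.05, 5.02 and 4.66 in NC (4.83 ± 0.24, mean ± SD, n = 4), 4.94, 5.06, 4.85 and 4.87 in DM (4.93 ± 0.10), and 5.04, 5.01, 4.91 and 5.30 in AngIV (5.07 ± 0.16). Two-sided intervals of its differences were -0.03 to 0.50 for AngIV minus NC, -0.13 to 0.40 for AngIV minus DM and -0.16 to 0.36 for DM minus NC; the adjusted p-values were 0.325, 0.757 and 0.828 (limma). Bbc3 encodes PUMA, which binds all the anti-apoptotic members. It gave 5.15, 5.35, 5.23 and 4.88 in NC (5.15 ± 0.20), 5.29, 5.00, 5.23 and 5.52 in DM (5.26 ± 0.21), and 4.90, 5.14, 4.92 and 5.33 in AngIV (5.07 ± 0.20). Its AngIV minus DM difference was -0.19 ± 0.14 (-0.48 to 0.11; adjusted p = 0.702). Both genes overlapped between all groups, and no call was made for either.

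The windows of Bcl2l11 and Bbc3 are shown because they were the 2 of the 9 genes with a forkhead core in a promoter window. Over the members' 17 windows, 2 held the core, against 3.17% of the 32851 windows of this length in the table; the GC box was in 9 of the 17 and in 32.7% of all windows. For Bcl2l11 the core stood 227 bases before the first of its 2 starts, in chr2:128125788-128126037 on the plus strand. For Bbc3 it stood 167 bases before the second of its 3 starts, in chr7:16310011-16310260 on the plus strand. A match of 7 letters is a description of the sequence and not evidence of binding.
Bcl2l11 start 1: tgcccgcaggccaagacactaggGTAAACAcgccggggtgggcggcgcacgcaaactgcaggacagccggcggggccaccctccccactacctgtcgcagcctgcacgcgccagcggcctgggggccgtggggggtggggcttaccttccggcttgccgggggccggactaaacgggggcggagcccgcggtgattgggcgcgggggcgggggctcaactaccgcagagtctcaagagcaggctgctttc
Bbc3 start 2: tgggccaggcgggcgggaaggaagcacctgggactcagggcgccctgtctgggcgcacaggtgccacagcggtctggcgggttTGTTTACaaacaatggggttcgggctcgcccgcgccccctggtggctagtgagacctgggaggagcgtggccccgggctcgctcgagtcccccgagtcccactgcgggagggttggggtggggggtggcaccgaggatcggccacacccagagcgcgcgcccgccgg

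The remaining BH3-only genes are Bad, whose protein is held inactive by survival kinases, Bid, which is cut by caspase-8, and Bmf, which is released from the cytoskeleton. Bad gave 5.13, 5.08, 5.35 and 5.44 in NC, 5.42, 5.35, 4.77 and 5.34 in DM, and 5.08, 5.25, 5.35 and 4.66 in AngIV. The low values were 1 DM array and 1 AngIV array, DM-3 and AngIV-4, and the groups overlapped. The interval of its AngIV minus NC difference was -0.52 to 0.19 and that of DM minus NC -0.38 to 0.33. Bmf ranged from 3.87 to 4.19 in NC, from 3.79 to 4.35 in DM and from 4.04 to 4.31 in AngIV, with an interval of -0.12 to 0.41 for AngIV minus NC. Bid ranged from 2.18 to 3.0 in NC, from 2.46 to 3.07 in DM and from 2.55 to 2.79 in AngIV, far below background. Fitted with every named gene, its AngIV minus NC interval was -0.17 to 0.54. A p-value over the threshold does not show that these genes were alike between the groups. The intervals describe the signals measured. For signals below background on every array, as in Bmf and Bid, they do not bound a change in the transcript.

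**Figure D2:**
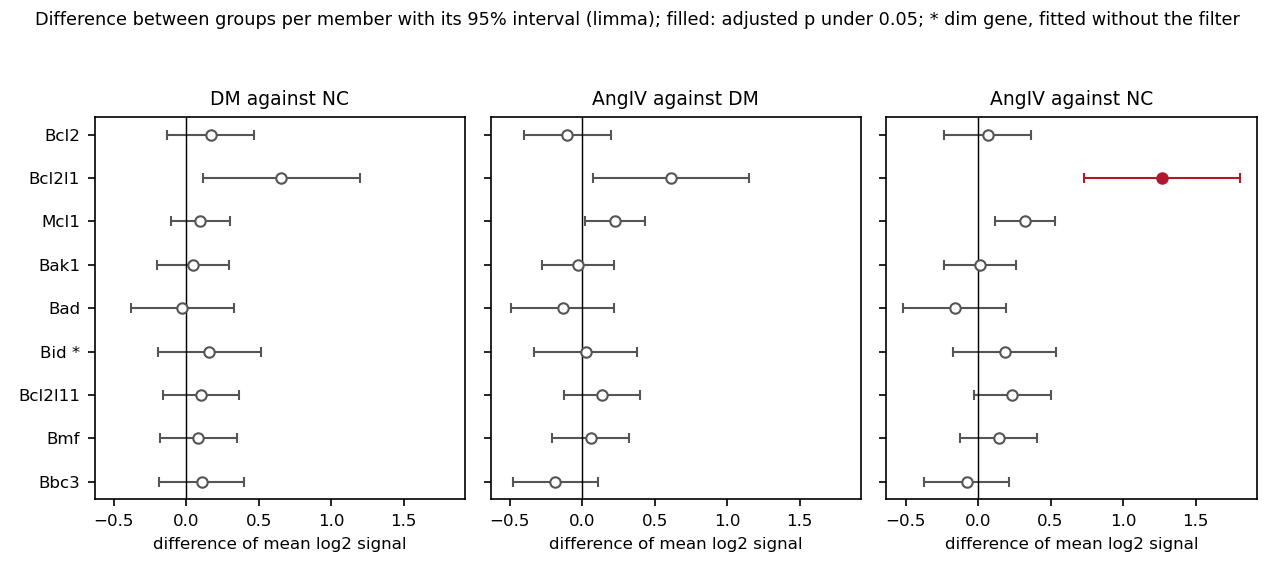
Difference of mean log2 signal per member (horizontal axis) with its 95% interval from limma, in 3 panels, 1 for each pair of groups; filled points have an adjusted p under 0.05, and Bid, marked with an asterisk, was fitted without the filter on low values. Bcl2l1 in AngIV against NC, at 1.27 with an interval of 0.73 to 1.81, is the 1 filled point.

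Counted over the family, 0 of the 8 tested members were called at an adjusted p under 0.05 (limma) in DM against NC, where 0.022% of all genes tested were called, and 0 of 8 in AngIV against DM, where 0.0% were. At an unadjusted p under 0.05, 1 of 8 passed in DM against NC (Bcl2l1), against 10.7% of all genes. In AngIV against DM, 2 of 8 passed (Bcl2l1 and Mcl1), against 8.78% of all genes. In AngIV against NC, 1 of 8 was called higher and none lower, where 1.52% of all genes were called higher and 2.15% in either direction. At an unadjusted p under 0.05, 2 of 8 passed against 18.6% of all genes. The same pair, Bcl2l1 and Mcl1, had no overlap between AngIV and NC, with AngIV higher, as did 7.59% of all genes. In all diabetic hearts against NC, 1 of 8 was called higher, where 0.908% of all genes were called higher and 1.32% in either direction, and 2 of 8 passed unadjusted against 16.4% of all genes. The median difference of the 8 members was 0.10 in AngIV against NC, compared with 0.00 over all genes, and the corresponding medians were 0.10 and 0.00 in DM against NC and 0.01 and 0.01 in AngIV against DM.

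Bcl2l1 was also the most variable member within the groups. Its pooled SD within a group was 0.44, at percentile 98.2 of all genes tested, whereas the SD of Mcl1 was 0.10, at percentile 8.04. The SDs of the other 6 tested members lay between 0.16 and 0.27, around the median of 0.18 over all genes. Over the 12 arrays Bcl2l1 spanned 2.03 log2 units, and the other tested members 0.43 to 0.77. The 4 DM arrays, from DM-1 to DM-4, had Bcl2l1 at 7.22, 6.28, 6.04 and 5.97. They lay in the same order on the first principal component of the genes tested, at 16.9, 7.39, -4.12 and -11.3. That component held 24.1% of the variance and placed NC between -18.1 and -13.1 and AngIV between 8.40 and 16.8. The DM hearts were thus spread from near NC to the level of the highest AngIV arrays, for Bcl2l1 and on this component.

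The genes whose signal was most like that of Bcl2l1 over the 12 arrays were Rasgef1b, a guanine nucleotide exchange factor (Pearson r = 0.975, Spearman rho = 0.972), Fkbp5, a co-chaperone of steroid receptors and a well known glucocorticoid-induced gene (0.971 and 0.965), and Sult1a1, a sulfotransferase (0.968 and 0.902). Fam117b (0.961 and 0.874) and Raph1, an adaptor of the actin cytoskeleton (0.954 and 0.972), followed. All the points share the same 12 arrays and the difference between groups. For deviations from the group means r was 0.930, 0.920, 0.921, 0.913 and 0.862 in the same order. Without DM-1 and AngIV-2, the arrays farthest from the median of Bcl2l1, it was 0.964, 0.959, 0.954, 0.960 and 0.964. Over 13652 genes the median r with Bcl2l1 was -0.012, and 58 genes exceeded 0.9.

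Fkbp5 illustrates the pattern on a larger scale. It gave 6.35, 4.88, 5.93 and 5.77 in NC, 8.69, 7.76, 6.02 and 6.24 in DM, and 7.64, 8.69, 8.25 and 8.55 in AngIV. DM-1 and DM-2 were as high as AngIV arrays and DM-3 and DM-4 as low as NC arrays. Its difference between AngIV and NC was 2.55 ± 0.48 (log2, SE; adjusted p = 0.0157, limma), lost without NC-2 (0.0515) or AngIV-4 (0.0512). The 5 genes were picked for their likeness to Bcl2l1 over arrays that include this contrast, so a call in it follows in part from the choice and is given as a description. The differences of the other 4, all called, were 1.48 for Rasgef1b, 1.22 for Sult1a1, 1.38 for Fam117b and 0.78 for Raph1. Sult1a1 lost its call in 6 of 8 fits without 1 array, with differences of 1.06 to 1.28, and Raph1 without AngIV-2, AngIV-3 or AngIV-4 (adjusted p = 0.0506, 0.0527 and 0.0557). Within the family, Mcl1 came nearest to Bcl2l1 (r = 0.794, rho = 0.79), and r of the other tested members ranged from -0.123 to 0.382. For Mcl1 r was 0.436 for deviations from group means, and r of the signals themselves was 0.933 without DM-1 and AngIV-2.

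**Figure D3:**
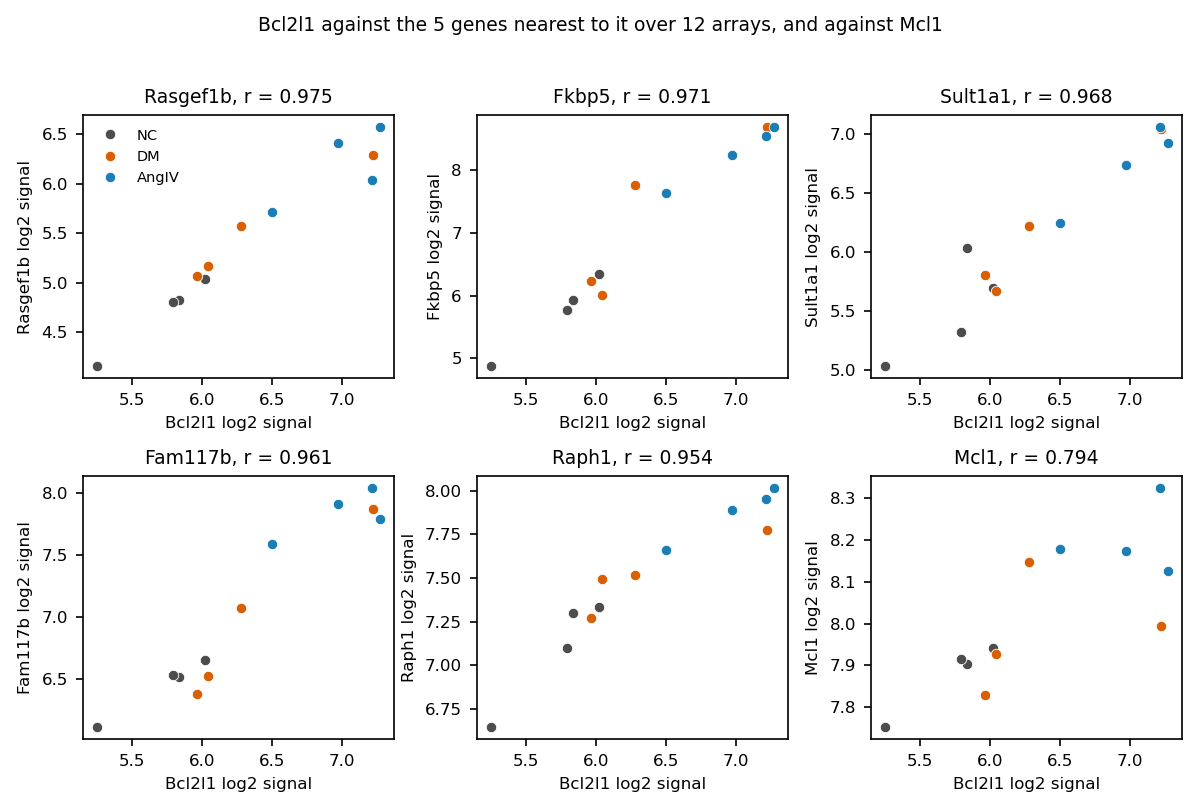
Log2 signal of Bcl2l1 (horizontal axes) against that of the 5 genes nearest to it and of Mcl1 (vertical axes), 1 point per array, coloured by group. NC-2, with Bcl2l1 at 5.24, is lowest in all 6 panels, and DM-1, with Bcl2l1 at 7.22, lies as high as AngIV arrays for the 5 nearest genes and below all of them for Mcl1, at 8.00.

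Genes around the family were read from 5 further lists. The regulators of BCL2 genes, 21 of 23 tested, held 3 genes called higher and 1 called lower in AngIV against NC, and the same 4 were called in all diabetic hearts against NC, where 2.15% and 1.32% of all genes were called. The list was drawn up with earlier results of these arrays known, so its count is not independent evidence. In DM against NC and in AngIV against DM it held 0 called genes (limma), and 6 and 3 at an unadjusted p under 0.05, against 10.7% and 8.78% of all genes. The list's median difference was 0.05 in AngIV against NC, compared with 0.00 over all genes. Pik3ip1, an inhibitor of phosphoinositide 3-kinase, rose from 7.95, 7.0, 7.52 and 7.61 in NC to 8.45, 8.81, 8.71 and 9.21 in AngIV, with 8.76, 8.91, 8.14 and 8.36 in DM. All 8 diabetic hearts were above all NC hearts. The AngIV minus NC difference was 1.28 ± 0.21 (log2, SE; adjusted p = 0.00819, limma), kept in 8 of 8 fits without 1 array, and that of DM minus NC was 1.03 ± 0.21 (adjusted p = 0.0984).

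Foxo3, a forkhead factor that activates BH3-only genes, rose from 5.74, 5.77, 5.54 and 5.73 in NC to 5.98, 6.34, 6.36 and 6.29 in AngIV, with DM at 5.96, 5.95, 5.89 and 6.01. The groups NC and AngIV did not overlap, and DM lay above NC. The NC mean of 5.69 was near the mean NC background of 5.48. The AngIV minus NC difference was 0.55 ± 0.10 (adjusted p = 0.0154, limma), lost without AngIV-3 (0.0546) or AngIV-4 (0.0522). In all diabetic hearts it was 0.40 ± 0.09 (adjusted p = 0.0399), kept in 3 of 12 fits without 1 array. Foxo4 had mean signals of 5.12 (NC), 5.44 (DM) and 5.08 (AngIV), below background in every group. Its difference was -0.36 ± 0.14 for AngIV minus DM (adjusted p = 0.505, limma) and -0.03 ± 0.14 for AngIV minus NC. Foxo1 was added after its values were seen, because the series title names it. Its mean signals were 5.58 (NC), 5.72 (DM) and 5.60 (AngIV), near background. Its interval was -0.27 to 0.31 for AngIV minus NC and -0.41 to 0.17 for AngIV minus DM.

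Pim3, a survival kinase whose family phosphorylates Bad, rose from 5.72, 5.47, 6.00 and 5.48 in NC to 6.19, 6.66, 6.02 and 6.77 in AngIV, with 6.75, 6.29, 6.34 and 6.38 in DM. Both diabetic groups lay above NC. The NC mean of 5.67 was near the mean NC background of 5.48, and NC-2 at 5.47 was below the background of that array, 5.55. The AngIV minus NC difference was 0.75 ± 0.17 (adjusted p = 0.0393, limma). It was lost without NC-1, NC-2, NC-4, AngIV-2 or AngIV-4 (adjusted p from 0.0724 to 0.106). In all diabetic hearts the difference was 0.76 ± 0.15 (adjusted p = 0.0259), lost without NC-1 (0.0615), NC-2 (0.0882) or NC-4 (0.0867). Fbxw7, the ubiquitin ligase subunit that marks MCL1 for destruction, fell from 6.06, 6.28, 6.42 and 6.25 in NC to 5.69, 5.88, 5.64 and 5.69 in AngIV, with 5.69, 5.88, 6.00 and 5.74 in DM. Here both diabetic groups lay below NC. The AngIV minus NC difference was -0.53 ± 0.11 (adjusted p = 0.0205, limma), lost without NC-2 (0.0571), NC-3 (0.0539), AngIV-3 (0.0689) or AngIV-4 (0.0622). In all diabetic hearts it was -0.48 ± 0.09 (adjusted p = 0.0241), lost without NC-2 (0.0718), NC-3 (0.0773), NC-4 (0.0699) or AngIV-3 (0.0505).

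Of the mitochondrial execution list, 18 of 20 genes were tested. In all diabetic hearts against NC 1 was called, Aifm1, a mitochondrial flavoprotein that is needed for the respiratory chain and can be released in cell death. It fell from 8.82, 8.80, 8.88 and 8.69 in NC to 8.21, 8.19, 8.57 and 8.48 in DM and 8.30, 8.43, 8.37 and 8.47 in AngIV. All NC arrays were above all other arrays. The difference was -0.42 ± 0.09 (log2, SE; adjusted p = 0.0378, limma) and was called in 2 of 12 fits without 1 array, those that left out DM-3 or DM-4, with values from -0.45 to -0.39. In DM against NC and AngIV against DM 0 genes of this list were called (limma), and 2 and 3 of 18 passed at an unadjusted p under 0.05, against 10.7% and 8.78% of all genes. In AngIV against NC 0 were called, and 5 of 18 passed unadjusted, against 18.6% of all genes. Besides Aifm1 these were Apaf1, the scaffold of the apoptosome, with a difference of 0.39 ± 0.17 between signals below background, and Birc2, an inhibitor of apoptosis, with 0.30 ± 0.12. Vdac2, a channel of the outer mitochondrial membrane, had 0.20 ± 0.09 and Dffb, the nuclease that cuts DNA in apoptosis, -0.30 ± 0.13, also below background; the last pair is outside the naming rule and was named after the values were seen. Their adjusted p-values were 0.0568 for Aifm1 and 0.219 to 0.256 for the other 4 (limma).

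In the list of other BCL2 family genes, 11 of 15 were tested and 0 were called in any of the 4 comparisons (limma). At an unadjusted p under 0.05, 2 passed in DM against NC, 0 in AngIV against DM, 4 in AngIV against NC and 3 in all diabetic hearts against NC. The shares of all genes were 10.7%, 8.78%, 18.6% and 16.4% in the same order. Bnip3, a mitophagy receptor with a BH3-like stretch, gave 8.70, 8.54, 8.71 and 8.86 in NC, 9.53, 9.50, 9.05 and 8.94 in DM, and 8.98, 9.14, 9.29 and 9.66 in AngIV. All 8 diabetic hearts were above all NC hearts. Its difference was 0.56 ± 0.16 for AngIV minus NC (adjusted p = 0.0761) and 0.56 ± 0.14 for all diabetic hearts (adjusted p = 0.0614). Bcl2l13, another mitophagy receptor, differed by 0.29 ± 0.09 for DM minus NC (adjusted p = 0.234), and Bik, a BH3-only gene, by -0.26 ± 0.11 for AngIV minus NC (adjusted p = 0.233).

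The death receptor list had 10 of 14 genes tested. The last list, of p53 pathway genes such as Mdm2, Mdm4 and Cdkn1a, had 11 of 14 tested. Both lists had 0 genes called in any of the 4 comparisons (limma). At an unadjusted p under 0.05, 3 and 2 of their genes passed in AngIV against NC, 0 and 2 in DM against NC, 2 and 0 in AngIV against DM, and 1 and 2 in all diabetic hearts. The shares of all genes were 18.6%, 10.7%, 8.78% and 16.4% in that order. For AngIV minus NC the death ligand gene Tnfsf10 differed by 0.51 ± 0.16 (adjusted p = 0.105, limma). Trp53inp1, a stress-induced regulator of autophagy and cell death, differed by 0.87 ± 0.23 (adjusted p = 0.0582). Both were below background in all NC arrays, and their means were below it in every group. Trp53inp1 was below background on every array, with its highest signal at 4.70 in DM-1. Tnfrsf10b, a receptor of that ligand, differed by -0.36 ± 0.15 and Traf2, an adaptor of tumour necrosis factor receptors, by 0.39 ± 0.16 in the same comparison, both below background, and Mdm4 by 0.35 ± 0.13. Casp8, the initiator caspase that cuts Bid, differed by -0.40 ± 0.15 for AngIV minus DM (adjusted p = 0.501), also near background.

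**Figure D4:**
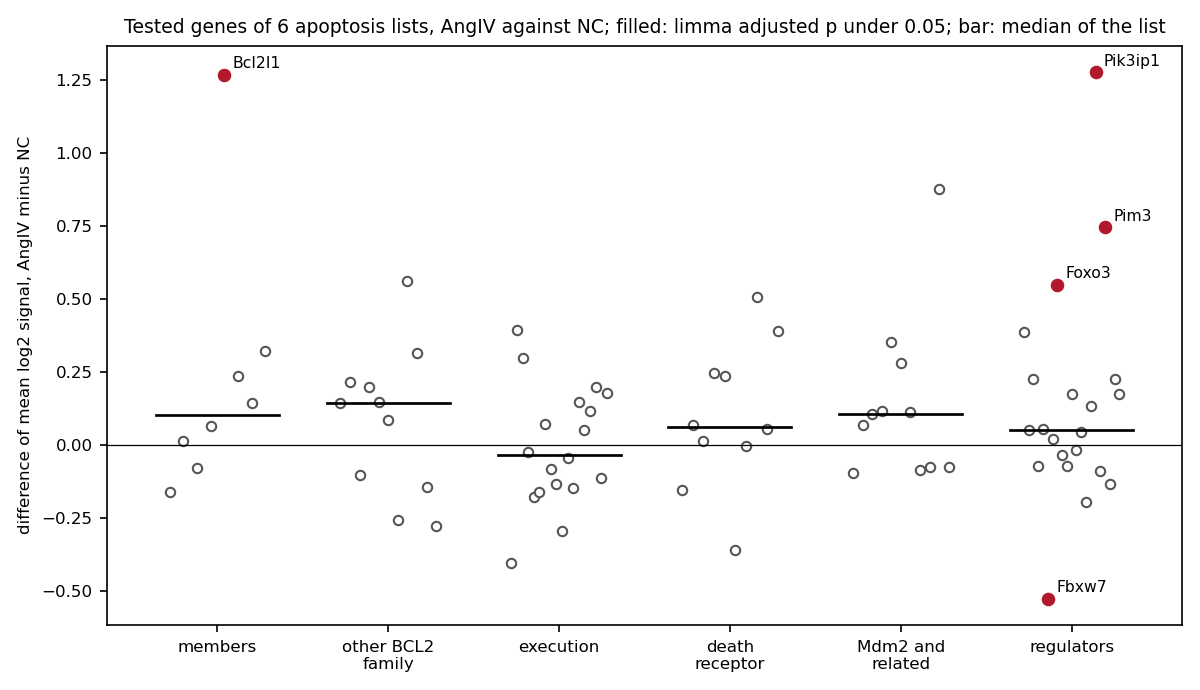
Difference of mean log2 signal, AngIV minus NC (vertical axis), for every tested gene of the BCL2 family members and 5 further lists; filled points have a limma adjusted p under 0.05 and the bar is the list's median. The filled points are Bcl2l1 at 1.27, Pik3ip1 at 1.28, Pim3 at 0.75, Foxo3 at 0.55 and Fbxw7 at -0.53.

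The tissue was read from marker genes. The 6 heart muscle markers were all above background in every group, with a mean log2 signal of 10.9 to 11.2 on every array. Atrial markers varied, with array means of 5.06 to 7.68 in NC, 4.78 to 7.39 in DM and 5.13 to 5.37 in AngIV, over 8 genes of which Bmp10 and Dkk3 were below background in every group. With this mean as a covariate the AngIV minus NC difference of Bcl2l1 was 1.47 ± 0.25 (adjusted p = 0.0095, limma). Macrophage markers, 5 of 6 with a probe set, had array means of 5.08 to 5.55 in NC, 5.25 to 6.54 in DM and 5.35 to 6.36 in AngIV; Adgre1 and Mpeg1 were below background in every group. In each group the array highest in Bcl2l1 (NC-1, DM-1 and AngIV-2) was also highest in this mean, and NC-2 was the lowest array in both. By contrast, AngIV-4 had Bcl2l1 at 7.21 and the mean at 5.35. The part of the macrophage markers in the result was not tested. Fibroblast markers, 5 of 6 with a probe set, had array means of 7.24 to 7.75 in NC, 7.26 to 7.53 in DM and 6.96 to 7.36 in AngIV, and their part was not tested either. Of the 6 skeletal muscle markers, Tnnt3, Tnni2, Myh4 and Mylpf were below background in every group, which left Acta1 and Ckm. The array means of this list were 5.56 to 5.73 in NC, 5.46 to 5.66 in DM and 5.34 to 5.54 in AngIV. NC and AngIV did not overlap, but this does not show that skeletal muscle content differed. Ventricular markers, 4 of 4 above background, had array means of 9.75 to 10.01, 9.78 to 10.2 and 9.97 to 10.2 in the same order. The part of these lists in the result was not tested. The lymphocyte and neutrophil markers with a probe set were below background in every group. In whole tissue, more cells of a type and more RNA per cell cannot be told apart.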

How the data were processed

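The values used are the log2 signals that the authors deposited, 1 for each probe set and array. Per the submitters' processing notes they come from RMA, which corrects background, equalizes the arrays by quantiles and summarizes the probes. The RMA version, chip definition and genome build are not given in the sources used here. Because quantiles were equalized, a change in total mRNA cannot be seen, and differences near background are compressed. That the scale is log2 follows from the range found in the table.

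Of 29129 probe sets, 6923 controls were left out of the tests, and 19572 had 1 gene symbol in the platform annotation, 2634 none and 0 several. For 55 genes with over 1 probe set the brightest was kept. The dimmest 30% of the 19505 genes were left out. Tests used limma 3.58.1 (R 4.3.3) on the deposited values, with 1 mean per group over all 12 arrays, over 13653 genes, with Benjamini-Hochberg adjustment; calls were made at an adjusted p under 0.05. Two-sided tests were used throughout. The scripts were tested on simulated data. Figures and tables used Python 3.11.15. Correlations between arrays were 0.961 to 0.986 within groups, and a positive control was brighter than a negative one with a chance of 0.913 to 0.930; the number of arrays limits the precision.

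The labels describe 4 mice in a group and pool none, so an array was taken as 1 mouse. The comparisons share groups. Replicate numbers were checked and did not pair the arrays: of 12 same-numbered pairs, 2 correlated over 0.1 in their deviations from the group means (-0.115 to 0.208). The 9 members with a named probe set are all named. Of each other list, every called gene is named, and at most the 3 of smallest p in a comparison. The 5 genes of highest correlation with the member of smallest p are named too. Members and lists were chosen with earlier results of these data known. Promoter sequences are from RefSeq (GRCm38.p6), matched by gene. Alternatives were other filters, a trend in the prior, array weights, the compared groups alone, a replicate block, atrial markers as a covariate and leaving out each array.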

Additional observations from a re-analysis of the deposited data

Results flagged for a closer look

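Of 27 sets of 4 arrays, 1 for each of the 9 members in each group, 1 held an array far from the others, and chance alone marks about 1 set in 20. It was Bad in DM, where DM-3 stood at 4.77 and the other 3 arrays at 5.34 to 5.42. The gap was 0.885 of the whole range, over the critical value for 4 samples. Bad is near background on these arrays, and the DM minus NC difference of Bad was not called with or without DM-3.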

How the results depend on the processing

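Over the members, 512 values were recomputed under an alternative: 469 kept their direction and their side of the threshold, 15 values of Bcl2l1 lost the call, 2 values of Mcl1 gained it and 26 uncalled values turned sign. The count of members called became 2 in AngIV against NC with a trend in the prior and among genes above background, and 0 in all diabetic hearts against NC with no filter, with array weights and with the replicate block, where the adjusted p of Bcl2l1 was 0.0599, 0.0541 and 0.0756; leaving out 1 array gave 0 to 1 in both comparisons. With the replicate block the genes called were 3 in DM against NC, 0 in AngIV against DM, 218 in AngIV against NC and 138 in all diabetic hearts, Bcl2l1 kept its call in AngIV against NC (adjusted p = 0.0395), and 2 of 12 arrays correlated best with their own number; the block also ended the calls of Pim3 (0.0793) and Sult1a1 (0.0695) in AngIV against NC and of Foxo3 (0.0724), Pim3 (0.0556) and Aifm1 (0.0633) in all diabetic hearts. With no filter Pim3 was over the threshold in AngIV against NC (0.0552), and Foxo3 (0.0659) and Aifm1 (0.0599) in all diabetic hearts, as was Aifm1 with array weights (0.061). The genes called over the array moved more. In DM against NC, from 3, they were 20 with the dimmest 50% left out, 29 with the trend, 5 with the compared groups alone, 5 with the atrial covariate, 22 among genes above background and 3 to 30 with 1 array left out. In AngIV against DM they were 0 to 5 with 1 array left out. In AngIV against NC, from 293, they were 492, 576, 466 (groups alone), 633 (above background) and 104 to 251. In all diabetic hearts, from 180, they were 328, 433, 318 (atrial covariate), 462 (above background) and 49 to 338. Fewer genes were tested with a stricter filter. The cause of the shifts was not tested for any of the alternatives. Uncalled values that turned sign were Bcl2 in AngIV against DM (0.012, atrial covariate) and Bak1 in AngIV against NC (-0.020 with array weights, -0.069 with the covariate) and in all diabetic hearts (-0.0071 and -0.0019). With 1 array left out the ranges that crossed 0 were, in DM against NC, -0.015 to 0.13 for Bak1 and -0.094 to 0.12 for Bad; in AngIV against DM, -0.089 to 0.015 for Bak1, -0.28 to 0.0062 for Bad and -0.054 to 0.13 for Bmf; in AngIV against NC, -0.022 to 0.16 for Bcl2 and -0.045 to 0.10 for Bak1; and in all diabetic hearts, -0.030 to 0.11 for Bak1 and -0.078 to 0.078 for Bbc3. Averaging the probe sets of a gene gave no new value, since no member had several. Signals near background, in 6 of the 9 members and also in Bak1, limit what the arrays resolve.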
